A study of Homo sapiens with 6 samples.

Results

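The histone mRNAs of HEK293T cells were followed from growing to mTOR-inactive conditions. The members were the transcripts of the mRNA-seq table whose gene name begins with HIST, the replication-dependent histones, or with H1F, H2AF, H2BF or H3F, the replacement variants. This gave 79 of 19211 gene names and 90 of 38438 transcripts. Transcripts with identical values in all libraries were merged, which left 87 entries, of which 61 were replication-dependent and 26 were replacement entries. By the name rule the replacement entries include the pseudogene H3F3AP4 and a low entry named H3F3B that is annotated as the microRNA MIR4738. The family was selected on the RPKM of its members in these same growing and PP242 libraries, whose difference was already known. For this reason all differences of its members between the conditions are given as a description.

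HEK293T is an established human embryonic kidney line that carries the SV40 large T antigen. The study compared cells under growing conditions with cells given 2.5 µM PP242, a compound that blocks the catalytic site of the mTOR kinase, and the labels state no duration for the treatment. mRNA-seq was made in 2 libraries per condition, described by the submitters as biological duplicates, and all libraries came from this 1 cell line. RNA bound by the protein LARP1 was sequenced by PAR-CLIP in 1 library per condition, from cells given 100 µM 4-thiouridine for 14 hr and irradiated with 150 mJ/cm2. The labels name polyA RNA as the molecule while the mRNA-seq protocol speaks of total mRNA, so how far transcripts without a poly(A) tail were captured is not known, and this bears on the level of every replication-dependent histone below.

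Replication-dependent histone genes lie in clusters and are used in S phase, when newly made DNA has to be packed into nucleosomes. Their mRNAs are not polyadenylated. They end a few nucleotides after a short stem-loop that is bound by the protein SLBP, and they are degraded when DNA synthesis stops. Replacement variants such as H3.3 and H2A.Z come from ordinary polyadenylated mRNAs that are made throughout the cell cycle. Some genes of the clusters can also give longer, polyadenylated transcripts that run past the stem-loop.

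The stem-loop set replication-dependent and replacement genes apart by sequence. In the GENCODE transcripts on GRCh37, 57 of the 62 current symbols behind the replication-dependent entries were matched and all 57 held a histone stem-loop, against 1 of 19 replacement symbols and 0.793% of 19807 protein-coding genes. The 19 include the microRNA MIR4738 and the pseudogene H3F3AP4. In 56 of the 57 the 16-letter element ended within 11 nt of the transcript end, with a median of 5 nt. Where a gene had several transcripts, the one with the element nearest its end was taken, which favours short distances. The word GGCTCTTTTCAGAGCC was shared by 34 genes of the H1, H2A, H2B and H3 families, and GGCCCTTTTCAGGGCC was found in 7 genes, all of them H4. The genes that carry the mRNA-level results are shown here with the stem-loop in capitals, read on the coding strand, and with the GRCh37 position of the capital letters, which lie in the 3′ part of the mRNA after the coding sequence.
HIST1H1C: ccaaaaGGCTCTTTTCAGAGCCacca
HIST3H2A: cataaaGGCTCTTTTCAGAGCCaccta
HIST1H2AC: cccaaaGGCTCTTTTCAGAGCCcccct
HIST1H2BK: cccaaaGGCTCTTTTAAGAGCCactta
HIST3H2BB: cccaaaGGCTCTTTTCAGAGCCaccca
HIST1H3H: cccaaaGGCTCTTTTCAGAGCCaccca
HIST2H4A: cccaaaGGCCCTTTTTAGGGCCgacca
HIST1H4J: ataaaaGGCCCTTTTCAGGGCCaccct
H2AFX: cacaaaGGCCCTTTTAAGGGCCaccac
The stem-loop of HIST1H1C lies at chr6:26055972-26055987 on the minus strand, that of HIST1H2AC at chr6:26124897-26124912 on the plus strand and that of HIST1H2BK at chr6:27114145-27114160 on the minus strand. HIST1H3H has it at chr6:27778294-27778309 and HIST1H4J at chr6:27792237-27792252, both on the plus strand. Outside the chromosome 6 cluster, HIST3H2A has it at chr1:228645070-228645085 on the minus strand and HIST3H2BB at chr1:228646239-228646254 on the plus strand. HIST2H4A stands for 2 gene copies with the same stem-loop, at chr1:149804596-149804611 on the plus strand and chr1:149832335-149832350 on the minus strand. H2AFX, at chr11:118965608-118965623 on the minus strand, was the only replacement gene with the element, and its matched transcript went on for 821 nt after it.

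The libraries were of similar depth. From the smallest steps between RPKM values they were estimated at 32.9 to 34.9 M mapped reads, so that 1 read in a transcript of 500 nt is worth 0.057 to 0.061 RPKM. Of the HEK293T markers VIM lay at 210 to 239 RPKM and KRT18, NEFM and CDH2 between 15.7 and 23.4 RPKM, KRT8 lay near 3 RPKM, and PAX2 was at most 0.136 RPKM. The blood, liver and endothelial markers PTPRC, ALB and PECAM1 stayed at or under 0.0402 RPKM, and the fibroblast marker COL1A1 lay at 1.76 to 1.84 RPKM. NEFL, HBB and CD3E were not analysed here.

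Replication-dependent histone mRNAs were scarce in these libraries and were more abundant after PP242. Summed over the 61 entries they came to 89.4 and 90.5 RPKM in the growing libraries and to 165 and 163 RPKM after PP242, a ratio of 1.82 between the means. Both mTOR-inactive libraries lay above both growing libraries. The 26 replacement entries summed to 1924 and 1912 RPKM in growing cells and to 1943 and 1947 RPKM after PP242, a ratio of 1.01. In growing cells 42.4% of the replication-dependent sum was HIST1H2BK alone, and without this entry the ratio was 2.10.

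All 5 replication-dependent classes had a higher sum after PP242, with no overlap between the conditions. Linker histone H1, which binds DNA between nucleosomes, went from 5.28 ± 0.42 to 9.01 ± 0.12 RPKM (mean ± SD, n = 2), a ratio of 1.71. The core histones H2A and H2B, which pair with each other in the nucleosome, differed in size of change. H2A went from 17.7 ± 0.92 to 39.8 ± 0.07 RPKM, a ratio of 2.25, and H2B from 53.0 ± 0.75 to 86.4 ± 0.16 RPKM, a ratio of 1.63. Without HIST1H2BK the H2B ratio was 2.12. H3 went from 5.24 ± 0.13 to 8.88 ± 0.15 RPKM, a ratio of 1.70, and H4 from 8.75 ± 0.28 to 19.8 ± 1.2 RPKM, a ratio of 2.27. The H4 sum rested largely on HIST2H4A, without which the log2 ratio of the means was 0.59 in place of 1.18. In bulk RNA, fewer cells in one phase of the cell cycle and less RNA per cell cannot be told apart, and the same is true for more cells or more RNA.

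**Figure D1:**
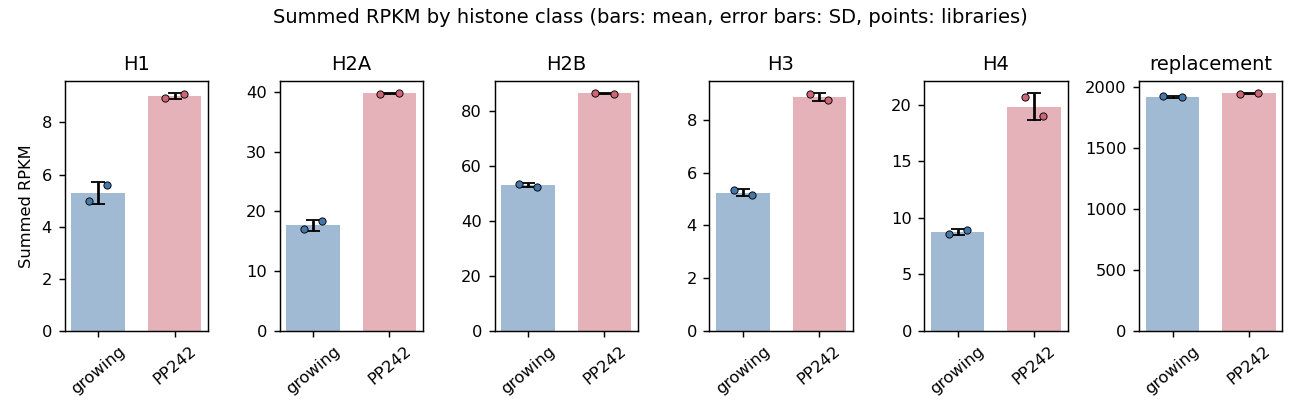
Summed RPKM of the 5 replication-dependent histone classes and of the replacement variants under growing and PP242 conditions, each panel with its own axis from 0. Bars show the mean and error bars the SD of 2 libraries, points are single libraries. In H1, H2A, H2B, H3 and H4 both PP242 points lie above both growing points, and the replacement sum has a ratio of 1.01.

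Single entries were set against a fit over all transcripts, made with limma on log2(RPKM + 1) in the 21014 transcripts whose mean over the libraries reached 1 RPKM. In this fit 731 transcripts (3.48%) were called higher after PP242 and 1356 (6.45%) lower, at an adjusted p under 0.05, and the median log2 difference was -0.001. Of the 61 replication-dependent entries 21 passed the filter, and of these 16 were called higher, 0 lower and 5 were not called. Of the 26 replacement entries 18 passed, with 2 called higher, 0 lower and 16 not called. Both PP242 libraries lay above both growing libraries in 18 of the 21 tested replication-dependent entries and below them in 0, against 28.5% and 30.0% of all transcripts tested. Because the family was chosen for this contrast, these counts add no support of their own. Without the filter, when all 38438 transcripts were tested, 6 replication-dependent entries were called higher, and 11 of the 16 lost their call, HIST1H2AC and HIST3H2BB among them (adjusted p = 0.0532 for both in limma). 3 of the 16 called replication-dependent entries, HIST1H2AG, HIST3H2BB and HIST2H3A/HIST2H3C, had a growing mean under 1 RPKM and passed the filter only through the PP242 libraries. The median log2 difference was 0.62 for the tested replication-dependent entries and 0.01 for the tested replacement entries. Over all transcripts tested, 90% of the log2 differences lay between -0.20 and 0.14, and 19 of the 21 replication-dependent entries lay above the upper bound.

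Among all 21014 transcripts, HIST3H2BB and HIST1H2AC held ranks 1 and 2 for the difference upward, HIST2H4A rank 4 and HIST3H2A rank 8 at a pseudocount of 1. The 50 transcripts with the greatest upward difference held 14 histone entries, all of them replication-dependent. Replication-dependent entries made up 21 of the 21014 transcripts in the fit and replacement entries 18. HIST3H2BB and HIST1H2AG, both among the 14, passed the filter only through the PP242 libraries. As the family was chosen for this contrast, these ranks are a description and add no support.

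**Figure D2:**
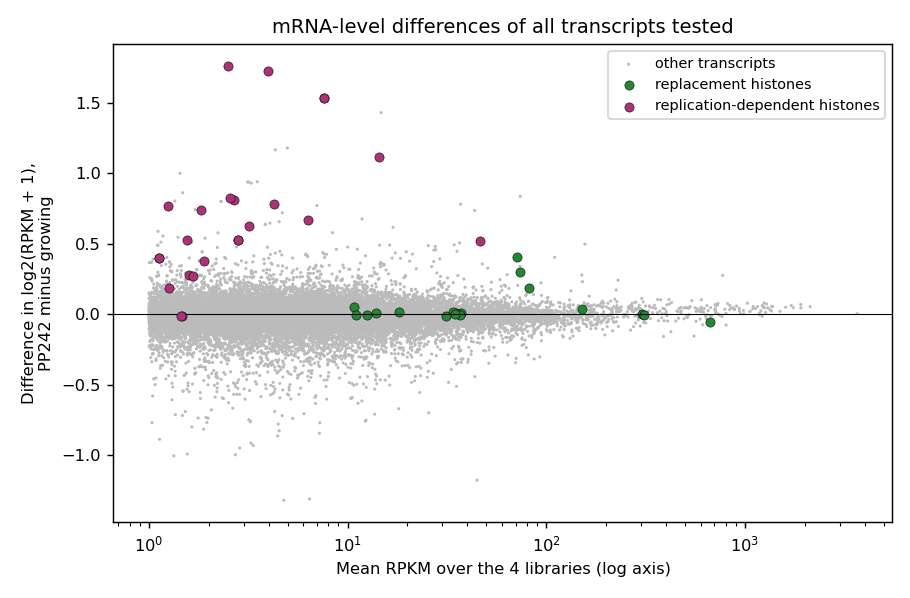
Difference in log2(RPKM + 1), PP242 minus growing, against the mean RPKM over the 4 libraries on a log axis, for the 21014 transcripts in the fit. A mean of 5 RPKM is reached by 4 of the 21 replication-dependent entries and by all 18 replacement entries. The ranges meet, as HIST1H2BK at 46.6 RPKM lies above several replacement entries. The median difference is 0.62 for the replication-dependent and 0.01 for the replacement entries.

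The H1 genes were represented by 1 expressed entry. HIST1H1C, which encodes linker histone H1.2, was at 4.48 and 4.77 RPKM in growing cells and at 7.84 and 8.07 RPKM after PP242. Its log2 difference was 0.67 ± 0.04 (SE), and the libraries of the conditions did not overlap. HIST1H1E was at 0.348 and 0.584 RPKM in growing cells and at 0.784 and 0.658 RPKM after PP242, and HIST1H1D at 0.117 and 0.148 against 0.151 and 0.222 RPKM. Both were higher in both PP242 libraries, at levels that correspond to few reads, and neither was tested. In HIST1H1D growing replicate 2 and PP242 replicate 1 were apart by less than the value of 1 read. The other 3 H1 entries stayed under 0.12 RPKM in every library.

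In the H2A class 5 of 15 entries passed the filter and all 5 were called higher, beside 3.48% of all transcripts tested, although the call of HIST2H2AC was lost without growing replicate 1 and without either PP242 library (adjusted p of at least 0.0916 in limma). Without the filter 4 of the 5 calls were lost, and HIST3H2A kept its call. HIST3H2A, an H2A gene outside the major clusters, was at 8.63 and 8.78 RPKM in growing cells and at 20.0 RPKM in both PP242 libraries, a log2 difference of 1.11 ± 0.03. HIST1H2AC was at 1.56 and 1.08 RPKM in growing cells and at 7.19 and 6.13 RPKM after PP242, a 5.04-fold ratio of means and a log2 difference of 1.73 ± 0.11. The pair of copies HIST2H2AA3/HIST2H2AA4, listed with identical values, was at 2.18 and 2.06 RPKM against 3.42 and 3.57 RPKM, a log2 difference of 0.53 ± 0.04. In all 3 the conditions were clearly separated, and replicates of one condition lay close together except in HIST1H2AC. Of the 10 H2A entries under 1 RPKM, 6 had no overlap and were higher, and 4 overlapped, where 23.8% of all transcripts listed were higher without overlap.

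In the H2B class 9 of 18 entries passed and 7 were called higher, beside 3.48% of all transcripts tested. The call of HIST1H2BN was lost without either PP242 library (adjusted p = 0.0651 and 0.0543 in limma), and that of 1 transcript of HIST1H2BD without PP242 replicate 1 (adjusted p = 0.0517 in limma). Without the filter 5 of the 7 calls were lost, with the exception of HIST1H2BK and HIST2H2BC. HIST1H2BK was the most abundant replication-dependent entry, with 39.2 and 37.1 RPKM in growing cells and 55.1 RPKM in both PP242 libraries, a ratio of 1.44 and a log2 difference of 0.52 ± 0.03. HIST2H2BC, annotated as a transcribed pseudogene, was at 2.84 and 2.92 RPKM against 5.52 and 5.85 RPKM, and its log2 difference was 0.78 ± 0.04. HIST1H2BE was at 2.13 and 2.49 RPKM against 4.15 and 4.05 RPKM, a log2 difference of 0.62 ± 0.06. HIST3H2BB had the highest log2 difference of the tested entries, 1.76 ± 0.11, from 0.779 and 0.414 RPKM in growing cells to 4.67 and 4.12 RPKM after PP242, a 7.37-fold ratio of means. Its growing level rests on few reads, and its rank depends on the pseudocount: with 5 in place of 1 its log2 difference was 0.75, below those of HIST2H4A (1.00), HIST1H2AC (0.88) and HIST3H2A (0.87). The 2 transcripts of HIST1H2BD, which differ in their 3′ part, gave log2 differences of 0.81 and 0.83, and much of their sequence is shared, so they are not independent. HIST1H2BO and HIST1H2BC were tested and not called, and in HIST1H2BC the libraries overlapped. 1 further H2B transcript had no gene name in the table and so fell outside the family as defined. It matches H2BC11 (HIST1H2BJ) by accession, at 3.50 and 3.10 RPKM in growing cells and 6.50 and 5.67 RPKM after PP242.

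H3 entries were low throughout. HIST1H3H was at 1.03 and 1.21 RPKM in growing cells and at 2.79 and 2.30 RPKM after PP242, a log2 difference of 0.74 ± 0.08. HIST1H3E, at 1.25 and 0.992 RPKM against 1.33 and 1.49 RPKM, was not called, with a log2 difference of 0.19 ± 0.07 that was 0.0993 without growing replicate 2. The pair HIST2H3A/HIST2H3C was at 0.869 and 0.800 RPKM against 1.36 and 1.48 RPKM, a log2 difference of 0.40 ± 0.05. Both H3 calls, of HIST1H3H and of this pair, were lost without the filter (adjusted p = 0.0851 and 0.0774 in limma). HIST1H3J was the only replication-dependent entry of 61 with both PP242 libraries below both growing libraries, while 40 had them above. It was at 0.508 and 0.719 RPKM against 0.307 and 0.480 RPKM, and was too low to be tested. Among the 11 H3 entries 7 lay above, 1 below and 3 overlapped, against 23.8% above and 24.2% below over all transcripts listed. The H3 calls were 2 of 3 tested entries, beside 3.48% of all transcripts tested.

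The H4 class was uneven. HIST2H4A, the entry of 2 identical copies, was at 3.53 and 3.33 RPKM in growing cells and at 12.6 and 11.1 RPKM after PP242, a 3.45-fold ratio of means and a log2 difference of 1.53 ± 0.06. HIST1H4K and HIST1H4J did not follow it. HIST1H4K was at 1.37 and 1.58 RPKM in growing cells and at 1.32 and 1.58 RPKM after PP242, and HIST1H4J at 1.37 and 1.57 against 1.32 and 1.57 RPKM. Both had a log2 difference of -0.01 ± 0.07, with overlapping libraries. Their values agree to within a few hundredths of an RPKM in each library. They moved together from library to library, and the ratio of PP242 to growing means was 0.9842 for both. Sharing of reads was not tested, but they are not read here as separate measurements. Both are counted among the 21 tested replication-dependent entries and the 5 not called. The other 8 H4 entries lay under 1 RPKM, and 4 of them were higher in both PP242 libraries, against 23.8% of all transcripts listed.

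**Figure D3:**
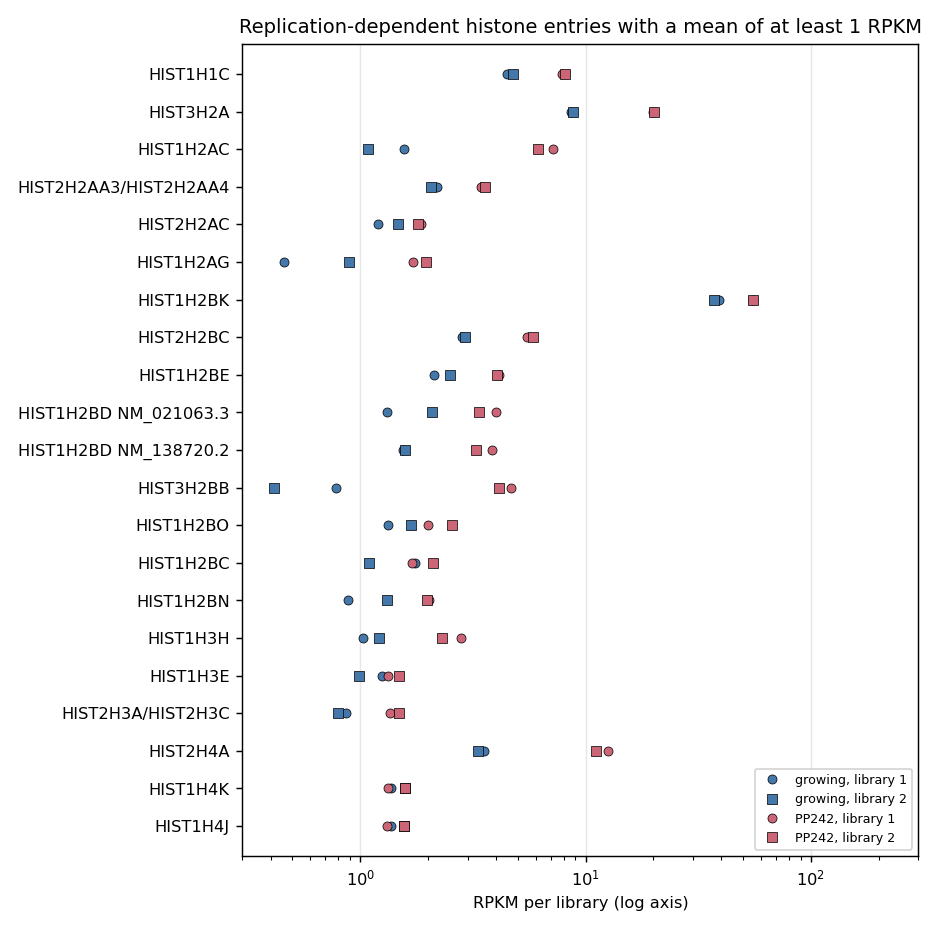
RPKM in each of the 4 libraries (log axis) for the 21 replication-dependent entries that passed the filter, ordered by class and level, blue for growing and red for PP242, circles for library 1 and squares for library 2. Red and blue are far apart for HIST1H2AC, HIST3H2BB, HIST2H4A and HIST3H2A and overlap for HIST1H4K, HIST1H4J and HIST1H2BC.

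Below the filter, 40 replication-dependent entries summed to 10.5 RPKM in growing cells and 19.4 RPKM after PP242. The PP242 mean was above the growing mean in 33 and below it in 7. Both PP242 libraries lay above both growing libraries in 22 of the 40, below in 1, and the libraries overlapped in 17. Over the whole table of 38438 transcripts 23.8% lay above and 24.2% below in this sense. 16 of the 40 entries were at 0 in at least 1 library, so single ratios in this group carry little weight. Some of the 22, such as HIST1H1D and HIST2H2AB, were kept apart by less than the value of 1 read.

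The replacement variants stayed close to their growing level, with a few exceptions. H2AFZ, which encodes H2A.Z, was the most abundant histone mRNA, at 677 and 680 RPKM in growing cells and at 647 and 661 RPKM after PP242. Its log2 difference of -0.05 ± 0.02 was the lowest of the tested entries and was not called, although the libraries did not overlap. H3F3A, 1 of the genes for H3.3, was at 302 and 301 RPKM in growing cells and 301 and 304 RPKM after PP242. Its pseudogene H3F3AP4 was listed at 310 and 309 RPKM against 307 and 311 RPKM, close to H3F3A in every library, and whether the pair shares reads was not tested. H3F3B, the other H3.3 gene, was at 152 and 147 RPKM against 154 and 152 RPKM, and H3F3C, an H3F3B-like gene, was at 38.7 and 36.0 RPKM against 37.4 and 37.6 RPKM. The 4 transcripts of H2AFY, which encodes macroH2A, lay between 30.9 and 35.6 RPKM in all libraries with log2 differences of -0.01 to 0.01. H2AFY2, which encodes macroH2A2, was at 37.0 and 36.7 RPKM against 38.0 and 35.4 RPKM, with overlapping libraries and a log2 difference of -0.01 ± 0.04. The 5 transcripts of H2AFV, a second H2A.Z gene, lay between 10.4 and 18.3 RPKM with log2 differences of -0.01 to 0.05.

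Of the 26 replacement entries 8 had both PP242 libraries above both growing libraries and 2 had them below, H2AFZ and the linker histone H1FNT, which is under 0.08 RPKM, against 23.8% and 24.2% of all transcripts listed. The 2 that were called higher were H1F0 and H2AFX. H1F0, which encodes H1.0, a linker histone typical of cells that divide little, was at 61.0 RPKM in both growing libraries and at 81.2 and 81.1 RPKM after PP242, a ratio of 1.33 and a log2 difference of 0.41 ± 0.02. H2AFX, which encodes the H2A variant phosphorylated at DNA breaks, was at 66.3 and 65.0 RPKM in growing cells and at 81.1 and 81.3 RPKM after PP242, a log2 difference of 0.30 ± 0.02. H1FX, which encodes H1.10, was at 78.6 and 74.8 RPKM against 91.5 and 83.5 RPKM, with no overlap, and its log2 difference of 0.19 ± 0.05 was not called, although it was called with a replicate block, with a filter at 5 RPKM and without PP242 replicate 2. H2AFJ, another H2A variant, was too low to be tested, at 0.591 and 0.612 RPKM against 0.816 and 0.946 RPKM. The remaining entries without overlap in the upward direction were H3F3B, 1 transcript each of H2AFV and H2AFY, and H2BFWT, which stayed under 0.07 RPKM. H2AFX was also the replacement gene with the histone stem-loop described above.

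**Figure D4:**
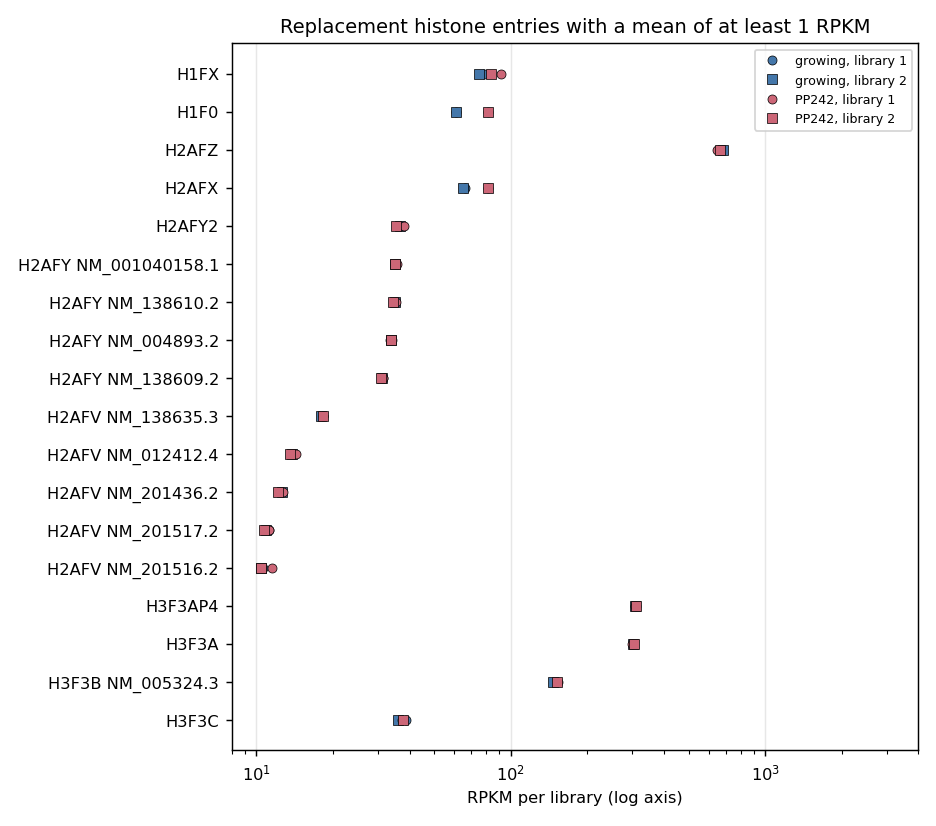
RPKM in each of the 4 libraries (log axis) for the 18 replacement entries that passed the filter, with colours for conditions and shapes for libraries. The PP242 points of H1F0, H2AFX and H1FX lie to the right of the growing points, those of H2AFZ lie to the left, and most other entries coincide.

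Whether a gene is annotated with transcripts past its stem-loop was compared with its level and change, as a description. For 16 replication-dependent entries GENCODE has a transcript that ends more than 100 nt beyond the stem-loop, and for 41 it has none. The distance was taken along the genome to the farthest end of any transcript of the gene, and reached 37155 nt for HIST1H2BC. Such a transcript need not contain the stem-loop, so the grouping does not show that transcripts run through it. The first group included HIST3H2A, HIST1H2AC, HIST3H2BB and HIST2H4A, and the second HIST1H2BK and HIST1H1C. Entries annotated beyond the stem-loop had a median level of 1.75 RPKM, against 0.491 RPKM for the others. Their ratio of PP242 to growing means had a median of 2.48 with a range of 1.26 to 7.37, and the other 39 entries with a growing mean above 0 had a median of 1.63 and a range of 0.0 to 10.6, which spans that of the first group. Of the tested entries 9 of 11 were called higher in the first group and 6 of 9 in the second. These counts include HIST3H2BB in the first group and HIST1H2AG and HIST2H3A/HIST2H3C in the second, which passed the filter only through the PP242 libraries. The second group also holds HIST1H4K and HIST1H4J, which are not read as separate measurements, so the shares are not compared further. Both PP242 libraries were above both growing libraries in 15 of the 16 and in 23 of the 41, beside 3.48% called higher and 23.8% without overlap in the upward direction over all transcripts. The entries of the first group summed to 25.6 RPKM in growing cells and 65.7 RPKM after PP242, and those of the second to 61.2 and 92.0 RPKM. The part of the differing levels in the differing ratios was not tested, and the RPKM table does not say which end of a gene its reads came from.

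Several H2A and H2B genes lie head to head with a shared promoter region, and the members of such a pair could differ. HIST3H2A and HIST3H2BB had ratios of 2.30 and 7.37. HIST1H2AC had a ratio of 5.04, while its neighbour HIST1H2BC had 1.34 with overlapping libraries. HIST2H2AC had 1.37 and HIST2H2BE 3.21. In other pairs the ratios were closer, at 1.63 and 1.82 for HIST1H2AK and HIST1H2BN, 1.74 and 1.53 for HIST1H2AI and HIST1H2BL, and 3.38 and 2.66 for HIST1H2AD and HIST1H2BF. HIST1H2AM had a ratio of 1.25, and its neighbour HIST1H2BO went from a mean of 1.51 to 2.27 RPKM. HIST1H3D, with a ratio of 5.98, is also paired with HIST1H2BF (2.66). It has a listed start that coincides with that of HIST1H2AD on the same strand, so this pair is not separate from the pair of HIST1H2AD and HIST1H2BF. Of the entries in these pairs, HIST2H2BE, HIST1H2AK, HIST1H2AI, HIST1H2BL, HIST1H2AD, HIST1H2BF, HIST1H2AM and HIST1H3D had a mean under 1 RPKM, and HIST1H2AK and HIST1H2AM had overlapping libraries, so their ratios carry little weight. HIST1H2AG, with a ratio of 2.72, lies head to head with H2BC11, the H2B transcript without a gene name described above.

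The promoter windows, from 250 bases before to 50 after the start in RefSeq on GRCh38.p14, were available for 72 of 81 histone symbols. Each motif was searched on both strands. CCAAT (or ATTGG) was in 84.2% of the 57 replication-dependent windows, in 86.7% of the 15 replacement windows and in 39.7% of all 27305 windows. Among the classes all H1, H2A, H2B and H3 windows held it, and 1 of 10 H4 windows. TATAAA (or TTTATA) was in 66.7% of the replication-dependent, 26.7% of the replacement and 14.0% of all windows. The octamer ATTTGCAT (or ATGCAAAT), the word recognised by POU-domain factors such as POU2F1, was in 11 of 15 H2B and 10 of 15 H2A windows, in 1 of 11 H3 windows, in 0 of 10 H4 and 0 of 6 H1 windows, in 1 of 15 replacement windows, and in 2.2% of all windows. Head-to-head genes share windows, so they share matches. The H3 match is that of HIST1H3D, at the same position and on the same strand as the match of HIST1H2AD. The octamers of HIST1H2BK, the most abundant entry, of HIST1H2AC, one of the entries with the greatest differences, and of HIST1H2BE are shown with 10 bases on each side, the octamer in capitals.
HIST1H2BK: tcttcaccttATTTGCATgagaggtcct
HIST1H2AC: gggcagagctATGCAAATgaggtatgaa
HIST1H2BE: aagctccttcATTTGCATgcagacttca
On GRCh38.p14 these lie at chr6:27146887-27146914 on the minus strand, chr6:26124032-26124059 on the plus strand and chr6:26183643-26183670 on the plus strand. The octamer shown for HIST1H2AC is also that of HIST1H2BC on the other strand, and the ratios of these neighbours were 5.04 and 1.34.

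The genes that make and use histone mRNA were read from the same fit. Of 25 tested genes for the transcription, 3′ end processing, translation and decay of replication-dependent histone mRNA, 1 was called higher and 3 lower, beside 3.48% and 6.45% over all transcripts, and the median log2 difference was 0.01. Those called lower were the S-phase kinase CDK2 and the E-type cyclins CCNE1 and CCNE2. CCNE1 was at 15.3 and 15.0 RPKM in growing cells and at 11.2 and 11.6 RPKM after PP242, a log2 difference of -0.38 ± 0.03. CCNE2 was at 13.4 and 13.6 RPKM against 9.34 and 9.90 RPKM, a log2 difference of -0.45 ± 0.04, and CDK2 at 27.3 and 27.9 against 25.6 and 24.8 RPKM, a log2 difference of -0.13 ± 0.03. UPF1, a helicase of mRNA decay, was called higher, from 37.0 and 35.3 to 40.1 and 39.9 RPKM, a log2 difference of 0.14 ± 0.03. SLBP, the stem-loop binding protein, had a log2 difference of -0.10 and was not called. The call of CDK2 was lost when any 1 library was left out, and that of UPF1 when growing replicate 2 or either PP242 library was left out. Without the filter on low values none of the 4 was called in limma, with adjusted p = 0.0513 for CCNE1 and 0.0522 for CCNE2.

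Of 23 histone chaperones, which carry and deposit histones, 2 were called higher and 2 lower, with a median log2 difference of 0.02. Over all transcripts tested 3.48% were called higher and 6.45% lower. HJURP, the chaperone of the centromeric H3 variant, went from 13.3 and 13.4 RPKM to 19.5 and 19.0 RPKM, a log2 difference of 0.49 ± 0.03. HIRA, a chaperone of H3.3, went from 29.4 RPKM in both growing libraries to 31.7 and 32.2 RPKM, a log2 difference of 0.12 ± 0.02. SPTY2D1 fell by 0.22 on the log2 scale, from 8.54 and 8.94 to 7.30 and 7.43 RPKM, and DAXX, another H3.3 chaperone, fell by 0.15, from 8.59 and 8.63 to 7.71 and 7.67 RPKM. The calls of HIRA and DAXX were lost when any 1 library was left out, and that of SPTY2D1 without growing replicate 2 or without PP242 replicate 1. Without the filter on low values all 3 were lost as well (adjusted p = 0.0891 to 0.0935 in limma).

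Of 41 S-phase and DNA replication genes 0 were called higher and 8 lower, and 32 had a log2 difference below 0. Their median was -0.05, where the median over all transcripts tested was -0.001. Over all transcripts tested 3.48% were called higher and 6.45% lower. Without the filter on low values 1 gene of the list was called lower, and CDC6 and FEN1 were not (adjusted p = 0.0511 for both in limma). CDC25A, a phosphatase that activates CDK2, was at 26.8 and 27.1 RPKM in growing cells and at 19.9 and 19.4 RPKM after PP242, a log2 difference of -0.44 ± 0.03. CDC6, which loads the replicative helicase, was at 56.9 and 58.6 against 44.7 and 45.5 RPKM, a log2 difference of -0.35 ± 0.03. FEN1, which trims Okazaki fragments, was at 79.4 and 77.1 against 62.6 and 63.0 RPKM, a log2 difference of -0.31 ± 0.02. With any 1 library left out, 3 or 4 genes of the list were called lower in place of 8, and these included CDC25A, CDC6 and FEN1 each time. The called genes of this list thus lay on the other side of 0 from the 16 called replication-dependent histones, and how far the share of cells in S phase moved with either was not tested.

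**Figure D5:**
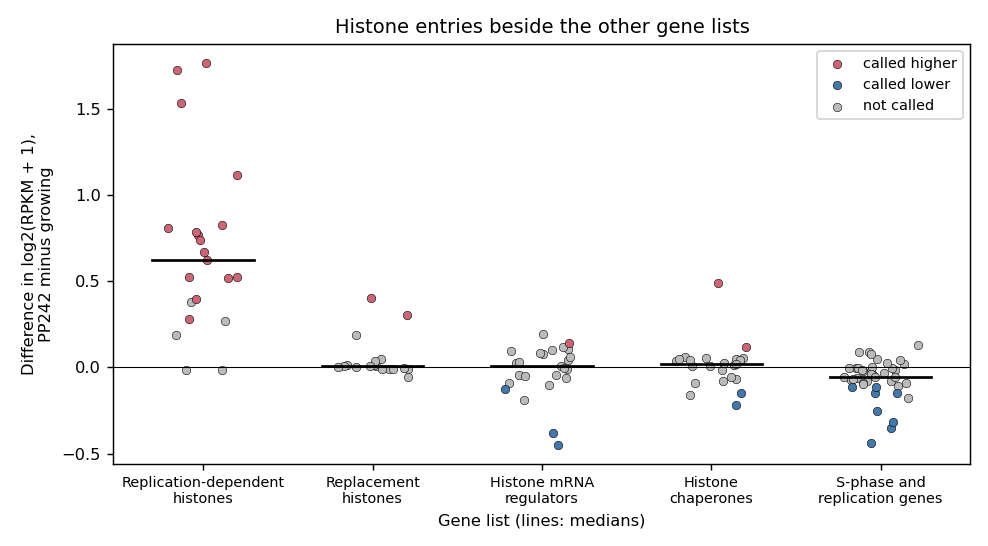
Difference in log2(RPKM + 1), PP242 minus growing, for the tested histone entries and for the genes of the other lists, with lines at the medians and colours for transcripts called higher or lower by limma at an adjusted p under 0.05. Replication-dependent histones have a median of 0.62 and the S-phase and replication genes one of -0.05.

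LARP1 is an RNA-binding protein, and PAR-CLIP lists the short transcript regions it was crosslinked to. With 1 library per condition there is no replicate, and a region missing from a list is not known to be free of LARP1. In growing cells 6 of 3948 listed sites were on histone transcripts, and after PP242 4 of 3947. Among replication-dependent histones only HIST1H2AB, at nt 280 to 294, and HIST1H3J, at nt 356 to 369, had a site, both in growing cells and at 0.0069 and 0.0022 RPM, in the coding sequence. Each of these values was also listed for sites on 2 other genes, and HIST1H2AB was at 0 RPKM in both growing libraries. The other sites were on replacement variants. In growing cells H2AFY had a coding-sequence site of 18 nt at 72.0 RPM, listed for its 4 transcripts, at nt 220 to 237 in 3 of them. The column for T-to-C reads, the mark of crosslinking, is a fixed multiple of RPM in most sites of the list, and the H2AFY site reached 0.148% of that multiple. After PP242 H3F3A had a site in the 3′UTR at nt 711 to 732 with 667 RPM, listed with the same value for H3F3AP4. H3F3B had one in the 3′UTR at nt 655 to 674 with 92.8 RPM, listed with the same value for H3F3C, and both sites had 100% of the usual T-to-C value. The mRNA levels of H3F3A and H3F3B had log2 differences of 0.0031 and 0.035 between the conditions. None of the sites was listed in both conditions.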

How the data were processed

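mRNA-seq (2 libraries per condition) and LARP1 PAR-CLIP (1 per condition) of HEK293T cells were used. The authors mapped reads to the hg19 transcriptome, divided reads matching several positions evenly among them, and deposited mRNA-seq RPKM per transcript and library. For PAR-CLIP they deposited sites with RPM, a ratio of RPM to mRNA level, and a column for T-to-C reads that is read as a score, since the methods do not define it. The ratio was not used. Members and gene lists were chosen with earlier results of these data known.

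Of 39711 lines, 1273 repeats were dropped. Differences were fitted with limma 3.58.1 in R 4.3.3 (eBayes with a trend) on log2(RPKM + 1), for transcripts whose mean reached 1 RPKM, at a threshold of 0.05 after Benjamini-Hochberg adjustment over all of them. RPKM are not counts, so no count test was used. With 2 against 2 libraries an exact permutation test cannot go below p = 0.333. The fit was tested on simulated data with 21014 transcripts: 200 of 200 changes of 0.5 on the log2 scale were recovered with 3 false calls, 200 of 200 changes of 1 with 9 false calls, and none was called without a change. Each simulated transcript had Gaussian noise of the median size at its level, so transcripts noisier than that were not represented. These counts therefore do not give the power or error rate of the fit on the real libraries. Other steps used Python 3.11.15 with pandas 2.3.3, numpy 2.4.6 and matplotlib 3.10.9. Each library's depth was estimated from the smallest RPKM steps.

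Named entries are the 3 of highest mean RPKM in each class, those of at least 5 RPKM, the 3 with the greatest log2 difference in each direction, those with a LARP1 site and, of each gene list, the 3 called genes of greatest difference in each direction. SLBP, entries not called, the pairs of neighbouring genes and the unnamed H2B transcript were chosen after their values were seen. Gene lists used the transcript of highest mean RPKM per gene. Alternatives were other pseudocounts, filters and scalings, a replicate block, leaving out each library, and other ways of counting copies.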

Additional observations from a re-analysis of the deposited data

How the results depend on the processing

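In place of 16, the number of replication-dependent entries called higher was 6 without a filter on low values, where 38438 transcripts were tested and 11 of the 16 lost their call, and 4 with a mean of at least 5 RPKM, where only 4 were tested. Leaving out the 3 entries with a growing mean under 1 RPKM gave 13, a count added after seeing the data. Leaving out single libraries gave 14 to 17 calls higher, and none was called lower under any alternative. These fits leave 1 library in a condition, which is assumed to vary like the other condition. Their median log2 difference was 0.803 with a pseudocount of 0.1, 0.302 with 5, 0.278 without a filter, 0.893 from 5 RPKM and 0.552 to 0.706 without single libraries. The replacement median was -0.001 to 0.021 without single libraries. The log2 ratio of sums was then 0.692 to 0.854 for H1 and 1.115 to 1.222 for H2A. Leaving out the most abundant entry, an alternative chosen after seeing the data, gave log2 ratios of sums of 0.687 for H1, 1.081 for H2B, 0.621 for H3, 0.588 for H4, 0.059 for the replacement variants and 1.071 for all replication-dependent entries. With every merged copy counted the log2 ratio was 1.378 for H4 and 0.907 for all replication-dependent entries, and with upper-quartile scaling 0.025 for the replacement variants.

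The replicate numbers did not pair the libraries (r = 0.04 over 21014 transcripts, 2 pairs). With the replicate block 17 replication-dependent entries and 2 regulators were called higher. Regulators called higher were 0 without a filter and 0 without a trend, and 0 to 1 without single libraries. Regulators called lower were 0 without a filter, 5 from 5 RPKM, 6 over every transcript and 2 to 3 without single libraries. Chaperones called higher were 1 without a filter, 1 without a trend and 1 without each library, and those called lower were 0 without a filter, 5 over every transcript and 0 to 1 without single libraries. S-phase genes called lower were 1 without a filter, 5 with upper-quartile scaling, 5 without a trend and 3 to 4 without single libraries. The sign of uncalled differences changed for HIST1H4K (-0.0897 to 0.0609 without single libraries), HIST1H4J (-0.0894 to 0.0608), H3F3AP4 (-0.0106 to 0.0068, and 0.0031 with upper-quartile scaling), H2AFY2 (-0.0573 to 0.0438), H3F3A (-0.0043 to 0.0105) and H3F3C (-0.0441 to 0.0561). The growing LARP1 sum was 72.053 RPM with each value counted once per gene and 0.009 RPM with only the sites whose T-to-C value reached 10% of its multiple, also added after seeing the data. For these the cause was not tested. Depth limits entries under 1 RPKM, which rest on few reads, and copies that share reads are not separate measurements.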
